A study of Homo sapiens with 6 samples.

Results

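The mutant TET2 line TET2M of the human melanoma cell line A2058 was compared with the Mock line, at each of 2 glucose concentrations. The arrays were chosen by their labels alone: 4 of the 6 arrays of the series belong to these lines, 2 of TET2M and 2 of Mock. The measured features were the probe sets annotated to a single gene, 41091 of 54675 on the array. Of these, 27035 lay above a low-value level of 2.64 on the log2 scale, and each gene was represented by its brightest probe set, which left 14428 genes tested. The labels describe TET2M as A2058 cells overexpressing a mutant TET2 and Mock as their mock counterpart, and all lines were grown for 7 days in DMEM with 4.5 g/L (high) or 1 g/L (normal) glucose. The remaining arrays are of TET2WT, A2058 cells overexpressing wild-type TET2, grown in the same way. The labels do not state which residue TET2M carries in place of the wild-type one, which promoter drives the constructs, or whether a line is a clone.

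TET2 is a dioxygenase that oxidises 5-methylcytosine in DNA, a step on the way to removing the methyl group, and it needs iron and 2-oxoglutarate to do so. Many melanoma lines release chemokines under the control of NF-kB, a transcription factor family that switches on inflammatory genes and also genes for its own inhibitors.

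Few genes passed the test between TET2M and Mock, and more of them were lower than higher. Of 14428 genes, 4 rose (0.0277%) and 10 fell (0.0693%) in TET2M at an adjusted p under 0.05 (limma, Benjamini-Hochberg, a line term and a glucose term over all 6 arrays). TET2 itself, the zinc finger cofactor ZFPM2, the cancer-testis antigen CT55 and the kinase MOK rose, by 2.31-fold to 11.3-fold. The genes that fell were the chemokines CXCL1, CXCL2, CXCL3, CXCL8 and CCL2, together with LCN2, PTX3, TNFAIP3, FDCSP and the long noncoding RNA LINC01419, by 2.86-fold to 7.44-fold. By a rule without a test, 20 genes (0.139%) were at least 1.5-fold higher in TET2M in both media and 54 (0.374%) at least 1.5-fold lower. Each line was measured once at each concentration, so a p-value reflects how far the line difference varied between single arrays, and the difference at 1 concentration rests on 1 array of each line and has no test. With any 1 of the 6 arrays left out, or with the TET2WT arrays left out of the fit, 0 genes passed in limma, with 575 to 1577 genes at an unadjusted p under 0.05 against 1372 with all 6 arrays. Without the glucose term, which pairs the arrays grown in the same medium, 7 genes passed, and with a variance that depends on the intensity 149 passed.

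The 6 arrays shared almost 1 distribution of values as deposited, and the median difference between TET2M and Mock over all genes tested was -0.02 at each concentration. The melanoma markers SOX10 (9.38 to 9.55) and MIA (10.92 to 11.13) were far above the low-value level on the 4 arrays, while the pigment genes MLANA and TYR were below the low-value level on all 4. Among markers of other cell types, PTPRC and CD14 of blood cells, CDH5 of endothelium and the epithelial EPCAM and CDH1 were also below it on all 4 arrays. Above it on all 4 were 1 of 3 blood markers (CD3D, 3.17 to 3.37), 3 of 4 endothelial markers (PECAM1, 4.09 to 4.39, VWF, 3.23 to 3.79, and TEK, 2.88 to 3.03), 2 of 4 keratinocyte markers (KRT14, 5.91 to 6.86, and KRT5, 2.76 to 3.54) and 3 of 5 fibroblast markers. The summed log2 level of the 4 keratinocyte markers measured was 13.68 and 13.67 in Mock and 13.93 and 12.79 in TET2M, and that of the 5 fibroblast markers 17.38 and 17.05 in Mock and 18.34 and 17.57 in TET2M. For ACTB the 3′ control probe set exceeded the 5′ one, a sign of RNA length, by 2.02 and 1.94 in Mock and 1.93 and 1.65 in TET2M, with the TET2M array at normal glucose apart from the others. For GAPDH the excess was 0.29 and 0.32 in Mock and 0.28 and 0.28 in TET2M, with no array apart. The part of these values in the gene differences was not tested.

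The targeted gene checks the labels. Mock gave TET2 values of 3.81 (high glucose) and 4.13 (normal glucose), whereas TET2M gave 7.57 and 7.37. Both TET2M arrays were thus far above both Mock arrays, by 3.50 ± 0.14 on the log2 scale (mean difference ± standard error here and below, adjusted p = 0.00124, limma). TET2WT read 9.54 and 9.68 on this probe set, above TET2M by 2.14 ± 0.14 (adjusted p = 0.00187, limma), so the lines did not overexpress TET2 equally. Another TET2 probe set read 2.1 and 2.64 in Mock, 4.57 and 3.89 in TET2M and 6.64 and 6.87 in TET2WT. Another one above the low-value level was nearly flat, at 5.23 and 5.22 in Mock, 5.41 and 5.31 in TET2M and 5.30 and 5.15 in TET2WT. The files do not say which part of the transcript each probe set reads. The related dioxygenases TET1 and TET3 did not pass, with differences of -0.27 ± 0.11 (adjusted p = 0.526, limma) and -0.32 ± 0.096 (adjusted p = 0.417, limma). Among the 25 genes tested of the TET and DNA methylation machinery, TET2 was the only one that passed. The de novo methyltransferase DNMT3B differed by -0.34 ± 0.088 and DNMT3A by 0.23 ± 0.088, the maintenance enzyme DNMT1 by -0.08 ± 0.088, and the base excision glycosylase TDG by -0.01 ± 0.087.

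The neutrophil-attracting chemokines CXCL1, CXCL2, CXCL3 and CXCL8, which signal through the receptor CXCR2, fell together in TET2M. Their genes lie on chromosome 4, and the 150 bases before their transcription starts are shown because the members that moved together share a short word there (RefSeq, GRCh38.p14, 5′ to 3′ on the gene's strand). Capitals mark GGAATTTCC, a word of the NF-kB motif type.
CXCL1 (chr4:73869243-73869392, plus strand): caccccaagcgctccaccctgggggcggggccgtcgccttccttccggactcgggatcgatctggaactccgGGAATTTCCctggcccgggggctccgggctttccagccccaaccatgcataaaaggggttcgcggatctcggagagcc
CXCL2 (chr4:74099196-74099345, minus strand): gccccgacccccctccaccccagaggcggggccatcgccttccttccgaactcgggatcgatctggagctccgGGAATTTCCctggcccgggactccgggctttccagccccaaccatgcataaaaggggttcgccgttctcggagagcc
CXCL3 (chr4:74038690-74038839, minus strand): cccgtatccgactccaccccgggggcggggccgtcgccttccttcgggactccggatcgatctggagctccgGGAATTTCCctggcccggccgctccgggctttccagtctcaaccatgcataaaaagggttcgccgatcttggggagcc
CXCL8 (chr4:73740419-73740568, plus strand): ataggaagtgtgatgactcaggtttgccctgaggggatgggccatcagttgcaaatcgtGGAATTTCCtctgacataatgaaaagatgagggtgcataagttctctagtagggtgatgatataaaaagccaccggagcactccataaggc
The marked word began 78, 77 and 78 bases before the start in CXCL1, CXCL2 and CXCL3 and 91 bases before it in CXCL8. In the 250 bases before the start, GGAATTTCC on either strand was found in 0.421% of all 27305 promoters of the table and in 0.356% of the 11512 genes tested that had one. It was found in 4 of the 7 genes that fell and had a promoter in the table, those printed above, and in 6 of the 40 genes at least 1.5-fold lower that had one (15%). The other two were CXCL10, which draws T cells, and ICAM1, an adhesion molecule. None of the 15 such genes higher in TET2M held it. Around the word the printed bases of CXCL1, CXCL2 and CXCL3 are nearly alike, so they are not independent occurrences. The printed genes were picked because they share the word and are among those counted, so these shares are no independent evidence of enrichment. TGACTCA, of the AP-1 type and sought on both strands, was in 4.28% of all promoters and 3% of those tested, in 2 of the 40 genes at least 1.5-fold lower (CXCL8 and SLFN12) and in 1 of the 15 at least 1.5-fold higher. A match describes letters, not binding, and the table's first promoter by position was used where a gene had several. FDCSP, CCL2, LINC01419 and ZFPM2 were not found in the table.

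CXCL8 (interleukin 8) was the first of the 4 along the chromosome. It read 10.73 and 11.56 in Mock at high and normal glucose, and 8.58 and 9.62 in TET2M, a difference of -2.04 ± 0.14 (adjusted p = 0.00960, limma). A second probe set of CXCL8 gave -2.32 ± 0.21 and passed among the 27035 probe sets as well (adjusted p = 0.0389, limma). CXCL1 read 9.59 and 9.89 in Mock and 7.22 and 8.06 in TET2M (-2.10 ± 0.14, adjusted p = 0.00960, limma). In every one of these genes both TET2M arrays lay below both Mock arrays, as they did in 20.2% of all genes tested. CXCL2 read 7.39 and 8.43 in Mock and 5.12 and 6.30 in TET2M (-2.20 ± 0.13, adjusted p = 0.00645, limma). CXCL3 read 6.93 and 7.21 in Mock and 4.62 and 4.81 in TET2M (-2.35 ± 0.089, adjusted p = 0.00124, limma). The monocyte attractant CCL2, on chromosome 17, read 8.23 and 8.35 in Mock and 6.24 and 6.79 in TET2M (-1.77 ± 0.12, adjusted p = 0.00960, limma). In both lines CXCL8, CXCL1 and CXCL2 were lower at high than at normal glucose, and the gap between the lines at high and normal glucose was -2.15 and -1.94 for CXCL8, -2.27 and -2.13 for CXCL2 and -2.37 and -1.83 for CXCL1.

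**Figure D1:**
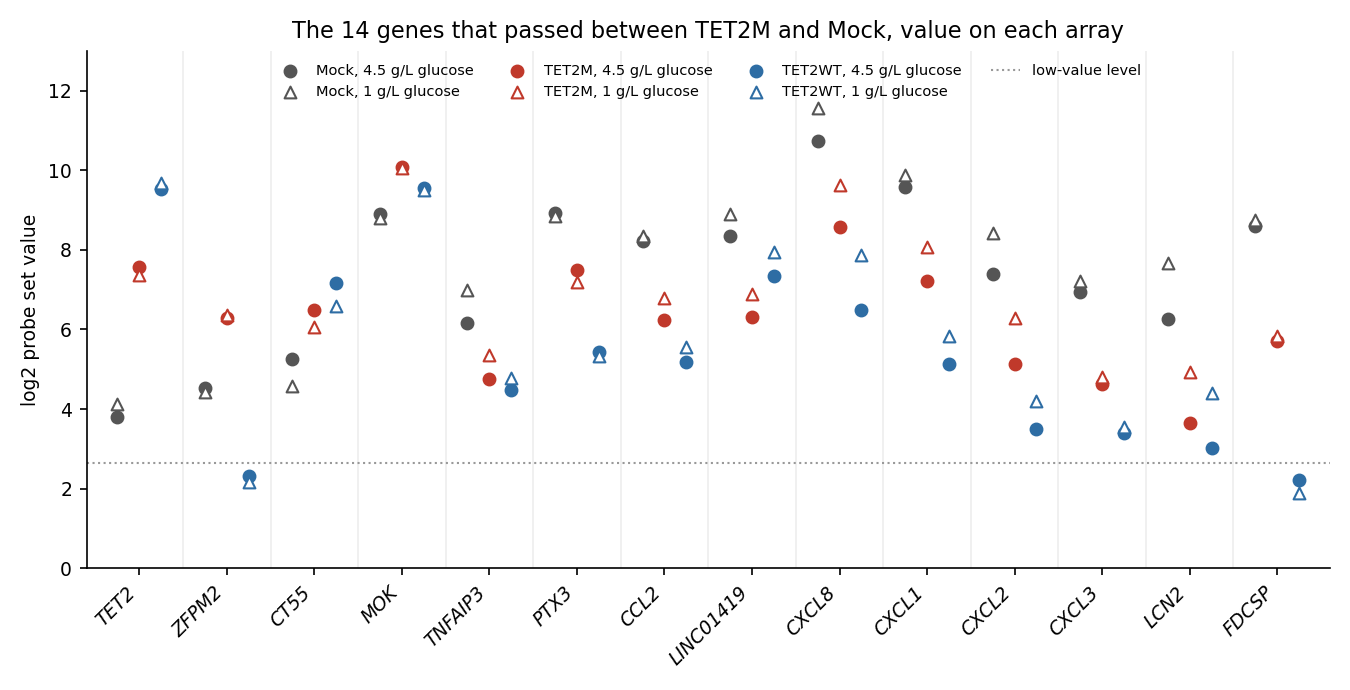
Log2 probe set value (y axis) on each of the 6 arrays for the 14 genes that passed between TET2M and Mock (x axis, ordered by the difference). Filled circles are 4.5 g/L and open triangles 1 g/L glucose, and the dotted line is the low-value level of 2.64. In the 10 genes on the right both TET2M arrays lie below both Mock arrays, and ZFPM2 is highest in TET2M and under the dotted line in TET2WT.

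The other genes that fell are secreted defence proteins, a feedback inhibitor and a noncoding RNA. FDCSP, a small peptide first described from follicular dendritic cells, showed the largest drop: it read 8.59 and 8.74 in Mock and 5.70 and 5.84 in TET2M (-2.90 ± 0.14, adjusted p = 0.00307, limma). LCN2, a lipocalin that withholds iron from bacteria by binding their siderophores, read 6.25 and 7.67 in Mock and 3.66 and 4.94 in TET2M (-2.66 ± 0.090, adjusted p = 0.00124, limma). PTX3, a soluble pattern recognition molecule of the pentraxin family, read 8.93 and 8.85 in Mock and 7.49 and 7.19 in TET2M (-1.55 ± 0.099, adjusted p = 0.00795, limma). The lines did not overlap for any of these 3 genes, against the 20.2% of all genes given above. TNFAIP3 encodes A20, a ubiquitin-editing inhibitor of NF-kB signalling. It read 6.16 and 6.99 in Mock and 4.75 and 5.37 in TET2M (-1.52 ± 0.14, adjusted p = 0.0369, limma), the highest adjusted p of the 14. A second TNFAIP3 probe set differed by -1.23 ± 0.11, and it alone of the pair passed among the 27035 probe sets (adjusted p = 0.0389, limma). LINC01419 read 8.35 and 8.90 in Mock and 6.31 and 6.88 in TET2M (-2.03 ± 0.086, adjusted p = 0.00143, limma), with nearly the same gap in both media.

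Of the 41 chemokine and NF-kB genes listed, 30 were tested, 8 fell and none rose. The list was written with earlier results of these data known, so its direction is not independent evidence. Of the 30, 25 were lower in TET2M at both concentrations and 0 higher at both, whereas 33.87% of all genes tested were lower and 24.19% higher at both. The median difference of the list was -0.57, beside -0.02 over all genes. The 11 members at least 1.5-fold lower in both media were the 8 that fell and PTGS2, C3 and ICAM1. PTGS2, the inducible cyclooxygenase that starts prostaglandin synthesis, read 5.09 and 5.65 in Mock and 3.10 and 3.57 in TET2M (-2.04 ± 0.23, adjusted p = 0.0697, limma). Its difference was as large as that of CXCL8, with a wider error, and it did not pass. Complement C3 differed by -1.54 ± 0.15 (adjusted p = 0.0586, limma) and ICAM1 by -1.22 ± 0.15 (adjusted p = 0.101, limma). Of the other ICAM1 probe sets, one differed by -1.13 at high and -1.19 at normal glucose and another by only -0.08 and -0.51. After these genes the probe set annotated MIR146A followed (-1.18 ± 0.29, with -0.58 at high and -1.78 at normal glucose), and then genes of the pathway's own control. NFKBIA, which encodes the inhibitor IkB-alpha, differed by -0.76 ± 0.13, the subunit RELB by -0.64 ± 0.10 and the nuclear regulator NFKBIZ by -0.64 ± 0.14. The subunit NFKB1 (0.01 ± 0.14) and the cytokines CSF3 (-0.03 ± 0.13) and IL24 (-0.05 ± 0.16) stood at the other end. IL6 read between 2.50 and 3.02 on the 4 arrays and IL1B between 2.68 and 2.93, close to the low-value level, so a further drop could not be seen in them.

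**Figure D2:**
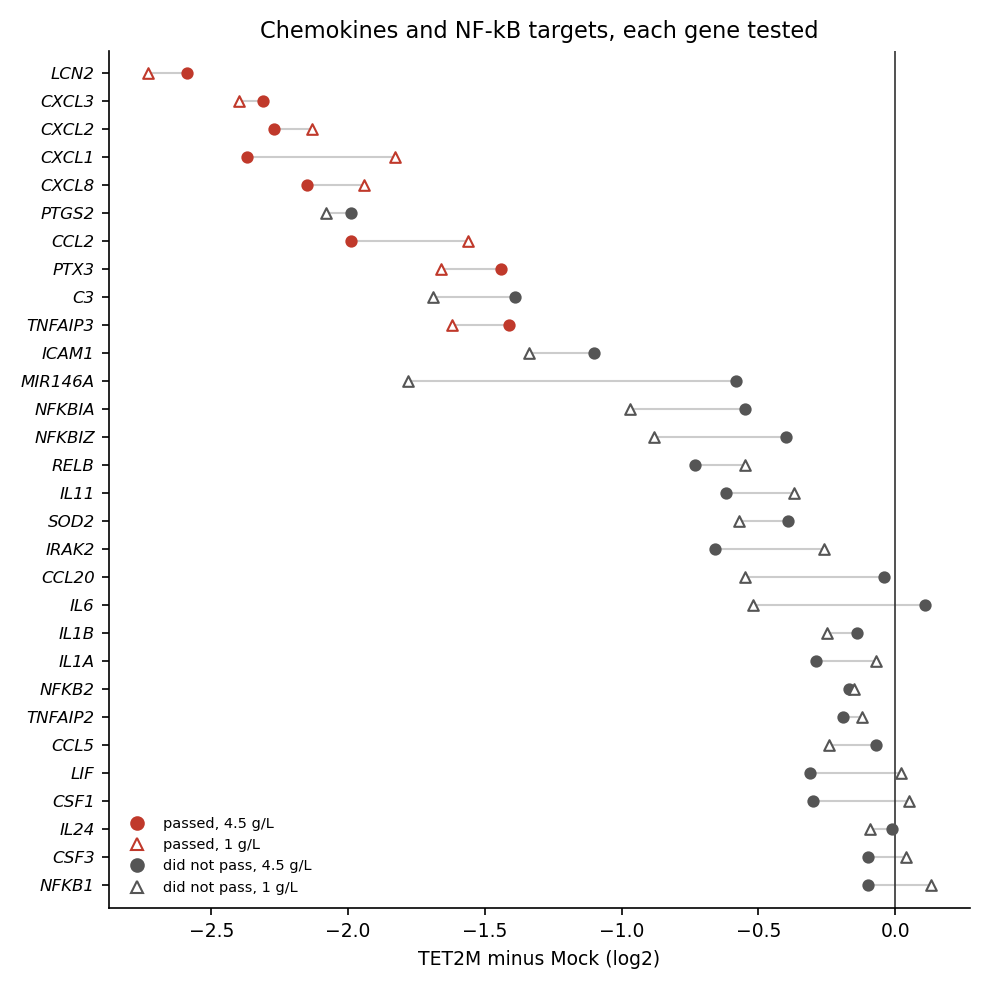
Log2 difference between TET2M and Mock (x axis) for the 30 tested genes of the chemokine and NF-kB list (y axis), at 4.5 g/L (circles) and 1 g/L glucose (triangles), with the 8 genes that fell in red. In 25 genes both points lie left of 0, from LCN2 at -2.59 and -2.73 to genes near 0.

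Outside that list, the lower genes with the largest differences that did not pass were MMP9, a gelatinase (-1.48 ± 0.15, adjusted p = 0.0589, limma), SULT1B1, a cytosolic sulfotransferase (-1.74 ± 0.23, adjusted p = 0.102, limma), and COXFA4L3 (-1.46 ± 0.30, adjusted p = 0.306, limma). MMP9 read 5.76 and 5.47 in Mock and 3.99 and 4.28 in TET2M. SULT1B1 read 4.27 and 4.94 in Mock, and its TET2M values of 2.90 and 2.83 lay just above the low-value level. MMP8, another matrix protease, differed by -0.63 ± 0.15 and INHBA, a subunit of activins, by -0.79 ± 0.090 (adjusted p = 0.0726, limma). LYZ, the bacteriolytic enzyme lysozyme, read 6.35 and 6.21 in Mock and 5.65 and 5.43 in TET2M (-0.74 ± 0.088, adjusted p = 0.0899, limma), and the teneurin TENM2 differed by -0.86 ± 0.089 (adjusted p = 0.0589, limma). A second LYZ probe set, nearer the low-value level, differed by -0.21 at high and 0.36 at normal glucose.

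Of the 10 genes that fell, 5 lie close to each other on chromosome 4: FDCSP, CXCL8, CXCL1, CXCL3 and CXCL2. Between SULT1B1 and CXCL10 this stretch holds 24 tested genes in the order of the RefSeq annotation. Besides the 5 genes that fell, its 2 end genes were at least 1.5-fold lower in both media, CXCL10 with -0.91 ± 0.12 (adjusted p = 0.102, limma). The median of all 24 was -0.12. The other 17 lay between -0.50 and 0.17, with a median of -0.02, equal to that of all genes. Because the genes at least 1.5-fold lower had been taken out, this median does not show whether the stretch as a whole shifted. The 17 included ANKRD17 (0.10 ± 0.097), the neighbour of CXCL8, and PF4 (0.12 ± 0.22), a platelet chemokine of the same family that read 2.66 to 3.03 and lies between CXCL1 and CXCL3.

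Of the 4 genes that rose, ZFPM2, a cofactor of GATA transcription factors also called FOG2, changed most after TET2. ZFPM2 read 4.54 and 4.43 in Mock and 6.28 and 6.37 in TET2M (1.84 ± 0.10, adjusted p = 0.00423, limma). CT55, a gene normally active in testis and found in tumours, read 5.25 and 4.59 in Mock and 6.50 and 6.05 in TET2M (1.35 ± 0.096, adjusted p = 0.00960, limma). MOK, a kinase related to the MAP kinases, read 8.91 and 8.81 in Mock and 10.08 and 10.05 in TET2M (1.20 ± 0.086, adjusted p = 0.00981, limma). In all 3 both TET2M arrays were above both Mock arrays, as in 12.8% of all genes tested. The 5 tested genes on either side of MOK on chromosome 14 differed by -0.14 (HSP90AA1, a cytosolic chaperone) to 0.36 (ZNF839), and none passed.

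A further 11 genes were the next highest by the smaller of their differences in the 2 media, and none passed (adjusted p from 0.0589 to 0.277, limma). STAC (0.94 ± 0.097) and the protocadherin PCDH17 (0.94 ± 0.10) had nearly equal gaps in both media. All 3 PCDH17 probe sets above the low-value level were higher in TET2M, by 0.94, 0.90 and 0.77. SGCZ, a sarcoglycan, had a large but uneven gap, reading 2.78 and 2.24 in Mock against 4.06 and 4.98 in TET2M, with the lower Mock value under the low-value level (2.01 ± 0.34, adjusted p = 0.200, limma). HBE1, the embryonic epsilon-globin, read 6.06 and 5.95 in Mock and 6.84 and 7.16 in TET2M (0.99 ± 0.12, adjusted p = 0.0988, limma). The gene next to HBE1 on chromosome 11 among those tested, the olfactory receptor OR51B4, differed by 0.80 ± 0.16 and its globin neighbours HBD and HBB by 0.40 and 0.32, all 3 reading under 4 on each TET2M and Mock array. The HBD difference was 0.08 at high and 0.72 at normal glucose. Of the other HBB probe sets above the low-value level, one differed by -0.02 at high and 0.02 at normal glucose and another by 0.17 and 0.09. MAGEB2, another cancer-testis gene of the X chromosome, differed by 0.85 ± 0.11 (adjusted p = 0.102, limma), whereas the 18 tested cancer-testis genes of the list had a median of -0.06. The others were NALF1 (1.01 ± 0.11), KCTD12 (0.92 ± 0.15), FBXL7 (0.89 ± 0.15), BEX5 (0.74 ± 0.094) and FCMR (0.75 ± 0.098). A second FCMR probe set above the low-value level differed by 0.19 at high and -0.02 at normal glucose.

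**Figure D3:**
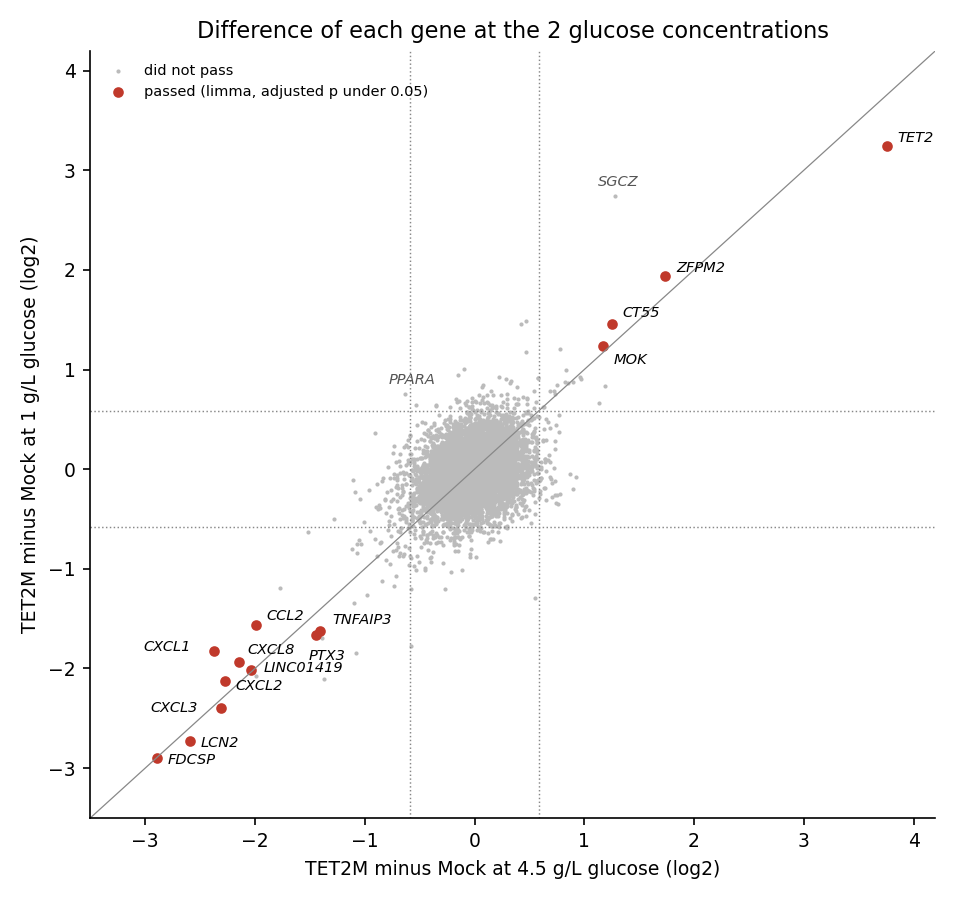
Log2 difference between TET2M and Mock at 4.5 g/L (x axis) and at 1 g/L glucose (y axis) for 14428 genes, with the 14 that passed in red, the line of equal difference and dotted lines at 1.5-fold. The red points follow the line of equal difference from FDCSP at -2.89 and -2.90 to TET2 at 3.76 and 3.24, and PPARA lies on opposite sides of 0. The test itself favours genes near that line.

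The size of the differences was nearly the same in both media for most genes that passed. The test takes its error from how far the line differences vary between the media. Near-equal differences therefore favour passing, and this likeness is no separate result. FDCSP differed by -2.89 at high and -2.90 at normal glucose and MOK by 1.17 and 1.24, and the widest gaps among them were those of CXCL1 (-2.37 and -1.83) and TET2 (3.76 and 3.24). Over all 14428 genes the differences at the 2 concentrations, which come from separate arrays, had a Pearson r of 0.408 across genes, or 0.349 without the 14, given as a description since genes are not independent. The median absolute gap between the differences of a gene in the 2 media was 0.13, and the median absolute size of their mean was 0.10. A gap and a mean of the same 2 values are on unlike scales, so their sizes are not compared. At least 1.5-fold apart in opposite directions was 1 gene, PPARA, a nuclear receptor of fatty acid oxidation, with -0.63 at high and 0.75 at normal glucose on its brightest probe set.

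The TET2WT values are set beside those of TET2M, and the tests between these 2 lines use the same TET2M arrays as the comparison with Mock. Between TET2WT and TET2M 476 of 14428 genes passed (3.30%). In 11 of the 14 genes TET2M lay between Mock and TET2WT. These include TET2, which the constructs themselves raise. The share of all genes tested that lay between was not counted, so the 11 cannot be set against it. FDCSP stood at 2.23 and 1.88 in TET2WT, below the low-value level. Set against that level, its mean of 5.77 in TET2M was at least 8.75-fold higher. The test for FDCSP was between TET2WT and TET2M, on the values as read (adjusted p = 0.000501, limma). CXCL8 read 6.49 and 7.88 in TET2WT (-1.92 ± 0.14 against TET2M, adjusted p = 0.00301, limma) and PTX3 5.44 and 5.34 (-1.95 ± 0.099, adjusted p = 0.000870, limma). For LCN2 TET2WT was lower by -0.58 ± 0.090 (adjusted p = 0.0307, limma), and for TNFAIP3 the difference did not pass (-0.42 ± 0.14, adjusted p = 0.199, limma). TET2M was outside the range of the other lines in 3 genes, ZFPM2, MOK and LINC01419, and all of them also passed between TET2WT and TET2M. ZFPM2 read 2.31 and 2.16 in TET2WT, below the low-value level, against 4.43 to 4.54 in Mock and 6.28 to 6.37 in TET2M (TET2M at least 12.8-fold above the low-value level, adjusted p = 0.000223 between TET2WT and TET2M, limma). MOK read 9.55 and 9.49 in TET2WT (-0.54 ± 0.086, adjusted p = 0.0333, limma). LINC01419 read 7.35 and 7.95, above TET2M by 1.05 ± 0.086 (adjusted p = 0.00408, limma).

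Some members that did not pass between TET2M and Mock differed between TET2WT and TET2M. HBE1 read 4.13 and 4.24 in TET2WT, below both other lines (-2.81 ± 0.12 against TET2M, adjusted p = 0.000603, limma). MAFF, a small Maf factor, read 7.61 and 7.77 in TET2M, under the 8.17 and 8.34 of Mock and the 9.06 and 9.07 of TET2WT (TET2WT minus TET2M 1.38 ± 0.093, adjusted p = 0.00217, limma), and BCL2A1, an NF-kB-driven survival gene, was also lowest in TET2M, at 2.76 and 3.12. For PTGS2 and C3 the difference between TET2WT and TET2M was 0.07 ± 0.23 and -0.10 ± 0.15 (adjusted p = 0.917 and 0.815, limma), with both lines at least 1.5 log2 units under Mock in the mean. The proteins of these genes were not measured on the arrays.

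Outside the chemokine and NF-kB list and TET2, none of the 915 listed genes tested passed. Of the 37 lists 33 had a median within 0.15 of that of all genes. The sterol and fatty acid synthesis list stood lowest of the rest: 20 of its 30 tested genes were lower in both media and 3 higher in both, with a median of -0.20. STARD4, a carrier of cholesterol, had the largest difference of the list (-0.60 ± 0.10, adjusted p = 0.200, limma), and the sterol sensor partner INSIG1 (-0.41 ± 0.12), HMGCS1 (-0.36 ± 0.092), MSMO1 (-0.35 ± 0.099) and SQLE (-0.29 ± 0.086) of cholesterol synthesis were lower as values. Of the other INSIG1 probe sets, one differed by 0.31 at high and -0.40 at normal glucose and another by -0.24 and -0.55. The regulators SREBF1 (0.20 ± 0.15) and SREBF2 (0.22 ± 0.091) were on the other side of 0. Of 34 tested genes of the G1/S and DNA replication list 25 were lower in both media, by a small median of -0.10, with PCNA, the sliding clamp, at -0.40 ± 0.10. The histone genes had the highest median, 0.14 over 12 tested genes, with H2BC12 at 0.45 ± 0.12 (adjusted p = 0.402, limma). Lists of glycolysis (0.03), oxidative phosphorylation (0.05), the TCA cycle (-0.0025), hypoxia (0.05), interferon response (0.03) and p53 targets (-0.07) had medians near 0.

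By chromosome, 2 stood apart. Over the 441 tested genes of chromosome 20 the median was -0.14, and 63.3% of them were lower in TET2M in both media, whereas the medians of the other 21 chromosomes, leaving out chromosome 14, lay between -0.04 and 0.01 and their shares between 27.7% and 40.3%. No gene of chromosome 20 passed. Both arms were lower, with medians of -0.21 over 143 genes of the short arm and -0.12 over 298 genes of the long arm, and 15 of 18 windows of 25 neighbouring genes had a median under -0.1. PCNA, DNMT3B, CEBPB (-0.34 ± 0.099), IDH3B (-0.24 ± 0.091) and TRIB3 (-0.32 ± 0.098), named above or leading their own lists, and MMP9 lie on this chromosome. On chromosome 14 the median over 458 tested genes was 0.08. There the chromosome was split at PRPF39, the first gene of a window with a median of 0.11. The 333 genes from PRPF39 to the end of the chromosome had a median of 0.12 and 56.2% were higher in both media. Among the 125 genes before it the median was -0.005 and the share 29.6%. PRPF39 itself differed by -0.005, so the split does not place the point where the values change. MOK, CDKN3 (0.39 ± 0.088), a cell cycle phosphatase, and NDUFB1 (0.23 ± 0.085), a subunit of respiratory complex I, lie on chromosome 14. Over the other chromosomes 15 of 536 windows had a median beyond 0.1 in either direction. The medians of TET2WT minus Mock were 0.005 for chromosome 20 and -0.005 for chromosome 14. Chromosomes were chosen for description with earlier results known, PRPF39 as the border was chosen after the values had been seen, and these shifts are descriptions without a test.

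**Figure D4:**
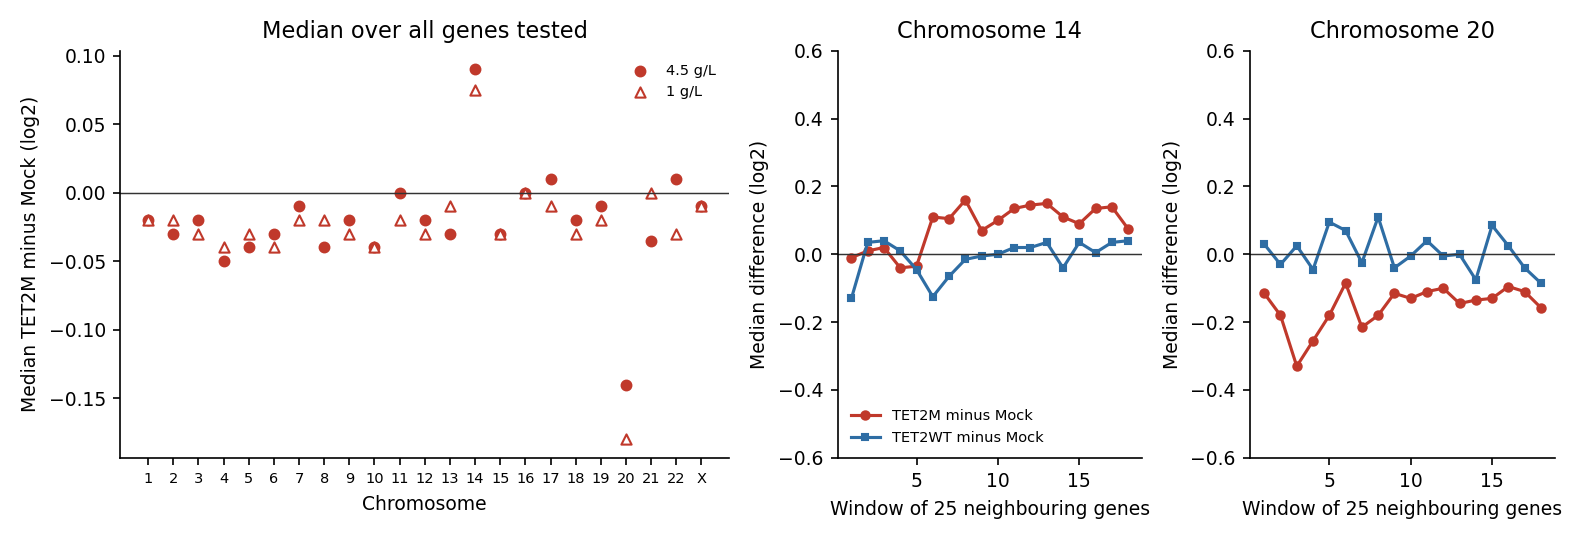
Left, median log2 difference between TET2M and Mock (y axis) over the tested genes of each chromosome (x axis) at 4.5 g/L (circles) and 1 g/L glucose (triangles); middle and right, median in successive windows of 25 neighbouring genes of chromosomes 14 and 20, with TET2WT minus Mock in blue. Chromosome 20 lies lowest at both concentrations and chromosome 14 highest, with windows down to -0.33 on chromosome 20 and up to 0.16 on chromosome 14.

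The letters CG, the site of the mark that TET2 oxidises, were counted in the same 250 bases of promoter. The 11512 tested genes with a promoter held a median of 20, and 12.7% held fewer than 5. The 40 genes at least 1.5-fold lower in TET2M held a median of 9, with 15 of them (37.5%) under 5, and the 15 genes at least 1.5-fold higher a median of 15, with 1 (6.67%) under 5. Among the genes that passed, CXCL8 and LCN2 held 4 each and PTX3 5, whereas CXCL1, CXCL2 and CXCL3 held 18, 20 and 19 and TNFAIP3 29. CT55 held 8, TET2 10 and MOK 19. Methylation itself was not measured here.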

How the data were processed

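The authors deposited log2 probe set values. The submitters' processing notes name Affymetrix Expression Console; how probes were summarised and corrected for background is not given in the sources used here, and the log2 base was read from the values, which run from 1.56 to 13.78 with 2 decimals. No normalization was added. Symbols came from the platform annotation, updated by gene ID with RefSeq (GRCh38.p14) for 41043 of 41091 single-gene probe sets. The 1801 probe sets naming several genes and the other 11783, which name none or are among the 62 controls, stayed out of the gene comparison. Probe sets with a mean over 6 arrays below the 40th percentile were left out. Models were fitted with limma 3.58.1 in R 4.3.3 (with the data.table package, 1.17.8). Residual degrees of freedom were 2 and those of the prior 3.97. Tests were two-sided and adjusted by the Benjamini-Hochberg method. Figures used Python 3.11.15 and matplotlib 3.10.9. The fit was checked on simulated data.

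The comparison, gene lists and tests were chosen with earlier results of these data known. Named genes were those that passed, the 15 higher and 15 lower with the largest of the smaller differences over the 2 concentrations (placeholder and LINC names passed over), the TET family, and leading members of the lists. The 37 lists held 1172 genes, of which 915 were tested. Any other gene named was chosen after its values were seen. Alternatives were the filter, the choice of probe set, the normalization, the variance model, the glucose term and the arrays left out. The low-value level is no absence of expression, and the number of arrays limits the precision.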

Additional observations from a re-analysis of the deposited data

Results flagged for a closer look

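PPARA differed between TET2M and Mock by -0.63 at high and 0.75 at normal glucose. It was picked out because the line difference ran in opposite directions in the 2 media, and the difference between the media was not tested, since each side rests on 1 array of each line. Mock read 5 and 4.24 and TET2M 4.37 and 4.99. The other PPARA probe sets above the low-value level differed by -0.07 at high and 0.51 at normal glucose, and by -0.14 and 0.34. Their signs were the same but their differences smaller.

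Among the 5733 probe sets above the low-value level that name several genes or none, 1 was at least 2-fold higher in TET2M in both media and 4 at least 2-fold lower. They were picked out because they lie outside the gene comparison. The higher one, annotated to FOLH1B and FOLH1, read 3.26 and 3.27 in Mock and 4.41 and 4.67 in TET2M. Of the lower ones, 2 are annotated to SSX2B and SSX2, and the first of these read 6.39 and 6.64 in Mock and 5.26 and 5.24 in TET2M. Unnamed in the annotation used here are the other 2, whose differences were -1.76 and -1.78 in the first and -1.08 and -1.08 in the second.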

How the results depend on the processing

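The labels carry no replicate numbers, and the glucose concentration served as the pairing. All 14 genes kept their direction under the 16 alternatives tried, with differences no smaller than 0.523 of the reported one. Alternatives that change only the variance model, the glucose term or the TET2WT arrays cannot alter a difference in this balanced design. Only others could, such as the normalization, the mean of a gene's probe sets or a TET2M or Mock array left out. Without the glucose term (no replicate block) 7 genes and 7 probe sets passed between TET2M and Mock and 267 genes between TET2WT and TET2M. CT55, TNFAIP3, CCL2, LINC01419, CXCL8, CXCL1, CXCL2 and LCN2 did not pass there, with adjusted p from 0.0652 (CCL2) to 0.615 (CXCL8), limma. With only the 4 TET2M and Mock arrays, 0 genes and 0 probe sets passed (limma, 1577 genes and 2521 probe sets at an unadjusted p under 0.05). Leaving out 1 array at a time gave counts from 0 to 0 in each of the 3 comparisons by limma, on 1 residual degree of freedom instead of 2. At the 60th percentile 22 genes passed, with the mean of a gene's probe sets 25, with an intensity trend in the variance 149 (37 higher and 112 lower; 114 probe sets; 1249 genes between TET2WT and TET2M), and at an adjusted p under 0.1 28 (837 between TET2WT and TET2M). Quantile normalization and cyclic loess moved the median of all genes to 0.01 and 0.00 and the genes at least 1.5-fold apart from 20 higher and 54 lower to 25 and 45 or 23 and 48. The median of chromosome 14 was 0.055 without the filter on low values, 0.10 at the 60th percentile, 0.11 after quantile normalization and 0.10 after cyclic loess, and that of chromosome 20 was -0.10 without the filter and -0.20 at the 60th percentile. With 1 array left out TXNIP ranged from -0.06 to 0.90, KRT5 from -0.22 to 0.69 and PPARA from -0.52 to 0.64. The cause of these changes was not tested, apart from the fewer arrays or genes fitted.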

Other observations

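Several genes on none of the lists were at least 1.5-fold apart in both media without passing, and those given here were chosen after their values had been seen. GLUL, which makes glutamine from glutamate, read 6.43 and 5.96 in Mock and 4.91 and 5.33 in TET2M (-1.07 ± 0.21, adjusted p = 0.273, limma). GLDC, the glycine decarboxylase, read 5.79 and 6.05 in Mock and 5.02 and 5.10 in TET2M (-0.86 ± 0.14, adjusted p = 0.198, limma). ENPP2, which encodes the lysophosphatidic acid producer autotaxin, differed by -0.89 ± 0.11, and SOCS3, a feedback inhibitor of cytokine signalling, by -0.80 ± 0.089 (adjusted p = 0.0907 and 0.0697, limma). PLAC8 read 5.33 and 5.25 in Mock, 4.26 and 4.41 in TET2M and 5.79 and 6 in TET2WT. On the higher side, CCBE1, a secreted factor of lymphatic vessel growth, read 5.20 and 5.23 in Mock and 5.89 and 6.01 in TET2M (0.73 ± 0.099, adjusted p = 0.106, limma), and the proprotein convertase PCSK5 differed by 0.90 ± 0.13.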
